A study of Homo sapiens with 24 samples.

Results

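The genes described here are 6 genes of the UTX and MLL4 enhancer complex and its closest relatives, followed across chromatin immunoprecipitation sequencing (ChIP-seq) peak lists of the bladder cancer cell line UMUC1. The members were KDM6A (UTX), KDM6B (JMJD3), KMT2D, KMT2C (MLL3), NCOA6 and PAXIP1 (PTIP). They were taken as 6 windows on hg19, each a gene body with 50 kb on either side, and every peak or region that overlapped a window counted. The windows spanned 1367 kb, of which 767 kb were gene bodies, and they held 595 of the 1483402 peaks and regions in the 18 lists. The members were chosen by name and position and not by a measured value.

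All 3 lines were UMUC1 cells stably carrying a pSIN-puro construct, harvested on day 3 after plating. In the EV line it held no insert, in WT the wild-type UTX, and in HEAA a mutant UTX whose changes are H1146A and E1148A. UTX, MLL4, H3K4me1 and H3K27me3 had 1 list per line, and H3K27ac had 2 numbered libraries per line; 6 inputs had no list. The labels do not say whether a line is 1 clone, how much UTX each line makes, or whether the numbered libraries came from separate cultures, and the p-values reflect the spread among these libraries alone, possibly a technical one. Lists without a second library carry no replicate error, the read depth of every list is unknown, and a place without a region is one below the threshold of the peak caller.

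KDM6A and KDM6B are demethylases that remove methyl groups from lysine 27 of histone H3, where H3K27me3 marks chromatin silenced by Polycomb proteins. KMT2D and KMT2C are the large methyltransferases that place H3K4me1 at enhancers, and each works in a complex that also holds KDM6A, NCOA6 and PAXIP1. KDM6B acts outside these complexes. Active enhancers and active gene starts carry acetylation of lysine 27 of histone H3 (H3K27ac), which excludes methylation of the same residue. KDM6A, KMT2D and KMT2C are among the chromatin genes most often mutated in bladder cancer. The name MLL4 has been used for both KMT2D and KMT2B, as the RefSeq gene table lists it as a synonym of both; the MLL4 of this complex is the product of KMT2D.

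The stretches just before the gene starts are shown because 5 of the 6 starts, all but that of KMT2D, lay within 1 kb of acetylated chromatin in all 6 libraries. The share of other gene starts that do so was not measured. That count used the ends of the windows' gene bodies, whereas the runs below precede RefSeq starts, which may lie elsewhere, as at KDM6B and KMT2D. RefSeq promoters (GRCh38.p14) were matched for 4 of the 6 members, KDM6A, KDM6B, KMT2D and KMT2C. Each run is the 250 bases before a listed start on the strand of the gene, plus strand for KDM6A and KDM6B and minus strand for KMT2D and KMT2C. Capitals mark letter matches, on both strands, to GGGCGG (bound by SP and KLF factors), CCAAT (the NF-Y box), TGANTCA (AP-1) and CACGTG (the E-box).
KDM6A: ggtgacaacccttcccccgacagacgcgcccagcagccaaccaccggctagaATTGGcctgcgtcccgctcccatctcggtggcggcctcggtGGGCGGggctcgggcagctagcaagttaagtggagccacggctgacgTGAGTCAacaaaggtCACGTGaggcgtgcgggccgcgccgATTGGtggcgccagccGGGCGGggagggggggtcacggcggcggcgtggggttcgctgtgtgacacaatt
KDM6B, start 1: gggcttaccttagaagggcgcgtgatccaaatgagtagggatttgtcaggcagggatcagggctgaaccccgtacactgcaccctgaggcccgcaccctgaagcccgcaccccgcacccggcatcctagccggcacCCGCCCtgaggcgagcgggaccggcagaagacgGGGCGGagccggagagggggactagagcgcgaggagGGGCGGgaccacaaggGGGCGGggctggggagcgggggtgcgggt
KMT2D: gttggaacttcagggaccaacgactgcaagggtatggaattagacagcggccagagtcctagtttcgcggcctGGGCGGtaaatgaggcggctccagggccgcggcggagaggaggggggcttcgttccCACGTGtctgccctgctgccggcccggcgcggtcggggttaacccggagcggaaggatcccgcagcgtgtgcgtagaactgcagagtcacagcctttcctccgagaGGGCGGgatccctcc
KMT2C: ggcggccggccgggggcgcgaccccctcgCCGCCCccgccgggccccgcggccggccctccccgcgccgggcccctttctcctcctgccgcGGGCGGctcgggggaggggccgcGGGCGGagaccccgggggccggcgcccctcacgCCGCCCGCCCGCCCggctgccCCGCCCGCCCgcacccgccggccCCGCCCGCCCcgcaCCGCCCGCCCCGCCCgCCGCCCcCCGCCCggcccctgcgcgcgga

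All 4 runs held more CpG than the median promoter. They held 27 CpG at KDM6A, 21 at start 1 of KDM6B, 23 at KMT2D and 48 at KMT2C, against a median of 11 over 35116 RefSeq promoters. KDM6A held more than 82.3% of promoters, KDM6B start 1 more than 69.8% and KMT2D more than 74.2%. KMT2C stood at the far end, with 92% G or C and more CpG than 99.7% of promoters. GGGCGG matched 2 times at KDM6A, 4 times at KDM6B start 1, 2 times at KMT2D and 15 times at KMT2C, where neighbouring matches overlap; 42.6% of all promoters held it at least once. The KDM6A run alone among the 4 held CCAAT (2 matches, found in 32% of promoters) and TGANTCA (1 match, 6.57% of promoters). CACGTG occurred once at KDM6A and once at KMT2D and is found in 6.34% of promoters. CCGGAAG (ETS factors, 8.52%), GCATGCGC (NRF1, 2.63%), AAGATGGCG (YY1, 0.652%) and TATAAA (the TATA box, 10.7%) matched none of the 4 runs. RefSeq lists a second start for KDM6B, 5.7 kb from start 1, whose 250 bases hold 1 CpG and none of these letters.

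At the gene starts, H3K27ac was present in every line. For this count the start is the end of the window's gene body on the side given by the gene's strand. Over KDM6A a merged acetylated region ran from 1.1 kb before to 2.7 kb past the start (chromosome X, 44730886 to 44734715). Its length was 3.18 and 2.93 kb in the EV libraries 1 and 2, 3.82 and 2.84 kb in WT, and 3.25 and 2.38 kb in HEAA. The enrichment deposited by the authors was 6.69-fold to 12.8-fold, with the lowest value in HEAA library 2 and the highest in EV library 2. The lines therefore overlapped at the start of the gene that encodes UTX itself. Folds rank regions inside a list only; the KDM6A region ranked above 74.5% to 91.7% of the regions of its own list.

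The start of KDM6B carried the widest of the 6 start regions, 6.24 kb from 6.1 kb before to 0.2 kb past the start (chromosome 17, 7736940 to 7743174). Its acetylated length was 3.19 and 4.86 kb in EV, 4.43 and 5.32 kb in WT, and 5.48 and 4.46 kb in HEAA, so the groups overlapped. The RefSeq KDM6B gene is 4.58 kb longer than the window's gene body and has 2 listed starts, 5.7 kb apart. Which of them the window's end stands for was not determined, so another start of the gene may lie within this region. A further region of 4.75 kb inside the gene was called in all 6 libraries, at 7.26-fold to 24.6-fold. KMT2D differed from the others in position. Its nearest region lay 1.5 to 5.3 kb before the window's gene end (chromosome 12, 49451467 to 49455348), and it was within 2 kb of that end in 4 of the 6 libraries and within 1 kb in none. The RefSeq gene is 3.82 kb longer than the window's gene body, so the window's end is not the only start that could be used. This KMT2D region ranked above 94.6% to 99.5% of its list in every library, with 12.4-fold to 14.4-fold enrichment. Its length was 3.82 and 3.85 kb in EV, 3.82 and 2.14 kb in WT, and 3.86 and 2.58 kb in HEAA; library 1 of all 3 lines was alike and library 2 of WT and HEAA was shorter.

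KMT2C had a start region of 4.32 kb (chromosome 7, 152130305 to 152134622), acetylated over 3.08 to 4.24 kb in the 6 libraries. NCOA6, a coactivator of nuclear receptors, had a start region of 2.36 kb that began at the start and ran into the gene (chromosome 20, 33411594 to 33413953), at 9.05-fold to 18.8-fold. PAXIP1, a BRCT-domain protein that also acts in DNA repair, had one of 2.62 kb around the start (chromosome 7, 154793765 to 154796386), at 9.47-fold to 18.2-fold. Across the 36 pairs of gene and library the acetylated length of the nearest region ran from 1.32 kb at NCOA6 to 5.48 kb at KDM6B. No H3K27me3 region touched any of the 6 start regions in any line.

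H3K4me1 was thin over these starts. In the EV, WT and HEAA lists it covered 0%, 7.89% and 8.51% of the KDM6A start region and 13.1%, 6.75% and 14.8% of that of PAXIP1. KMT2C had 13.3%, 14.9% and 6.51%, NCOA6 had 29.4%, 31.9% and 34.6%, KDM6B had 37.7%, 40.8% and 35.5%, and KMT2D had 40%, 34.5% and 22%. Over the 26012 H3K27ac regions of the genome called in all 6 libraries the median was 71.5%, 68.8% and 70.6%. All 18 values for the members therefore lay below the genome-wide median of their line. Those 26012 regions include enhancers as well as gene starts, so this sets the starts beside acetylated chromatin of all kinds and not beside other starts.

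**Figure D1:**
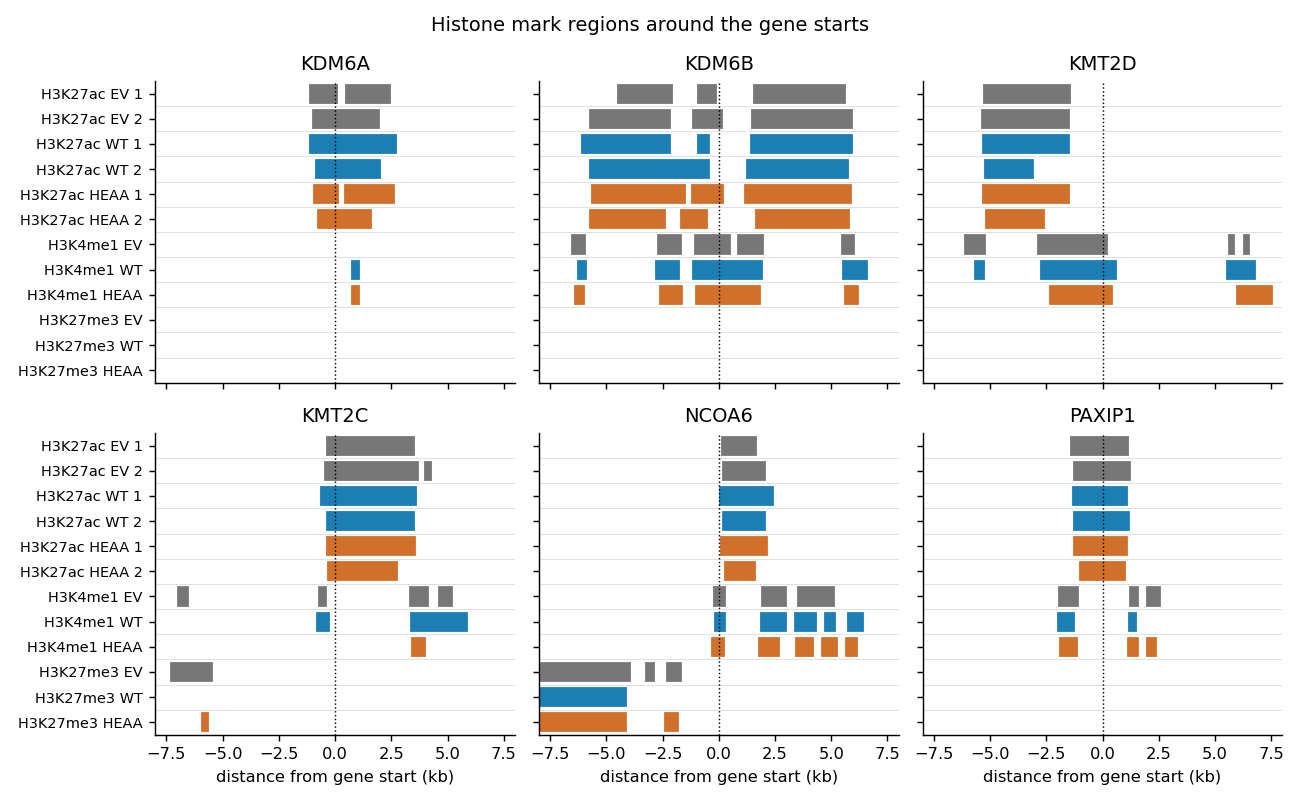
H3K27ac, H3K4me1 and H3K27me3 regions within 8 kb of the 6 gene starts, with the distance from the start in the direction of the gene on the x axis (kb) and 1 row per list. Bars are called regions in grey (EV), blue (WT) or orange (HEAA). The starts are the ends of the windows' gene bodies. Acetylation lies at each of them but that of KMT2D, where it lies 1.5 to 5.3 kb before it. The RefSeq KMT2D gene is 3.82 kb longer than the window's gene body, so its own start may lie elsewhere. No H3K27me3 lies on a start region.

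The first comparison asked whether H3K27ac over the complex genes differed between the EV line and the lines that carry UTX. KDM6A had 6.69 and 5.11 kb of H3K27ac in its window in EV, 9.44 and 5.14 kb in WT, and 11.2 and 3.83 kb in HEAA. The means were 5.90 ± 1.12 kb (SD, n = 2) in EV, 7.29 ± 3.04 kb (SD, n = 2) in WT and 7.53 ± 5.24 kb (SD, n = 2) in HEAA. Library 1 of WT and HEAA lay above both EV libraries, library 2 of HEAA below both, and library 2 of WT between them. The difference of 1.51 kb was smaller than the spread between libraries (exact two-sided permutation test over libraries, p = 0.667). It was 0.237 kb without HEAA library 1 and 2.71 kb without HEAA library 2, and 0.261 kb with all lists cut to equal length. KDM6B had the most acetylation of the 6 windows, 17.7 and 19.5 kb in EV, 18.8 and 20.2 kb in WT, and 20.6 and 17.6 kb in HEAA, with overlapping lines (exact p = 0.6).

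KMT2D was the window in which the lines did not overlap. Its H3K27ac covered 9.20 and 10.4 kb in EV, 8.80 and 5.12 kb in WT, and 8.44 and 5.69 kb in HEAA, so all 4 libraries with a UTX construct were below both EV libraries. The mean of the 4 was 2.78 kb lower, a change of -28.4% (exact p = 0.133, adjusted p = 1 by Benjamini-Hochberg over all bins and windows). With 15 possible splits of 2 against 4 libraries, no p below 0.0667 can be reached. Of the 10772 bins of 200 kb with H3K27ac in any library, 3.93% showed the same order and 2.27% the opposite order. No minimum of EV coverage was asked of these bins, and a bin without a region in an EV library cannot show the first order. The share among bins with as much H3K27ac as KMT2D was not measured. The difference came mainly from the second libraries: -0.582 kb in library 1 and -4.97 kb in library 2. It lay in the flanks, since inside the KMT2D gene body the 6 libraries held 1.41 to 1.77 kb. The second libraries of WT and HEAA also had the shortest H3K27ac lists of the series (40470 and 37298 regions, against 45880 in EV library 2), and the part of list length in this result was not tested. With all lists cut to equal length the difference was -2.37 kb.

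The other 3 windows overlapped between lines. KMT2C had 5.78 and 7.71 kb in EV, 6.98 and 5.79 kb in WT, and 6.58 and 5.25 kb in HEAA (exact p = 0.6). NCOA6 had 10.1 and 10.0 kb in EV, 12.6 and 9.20 kb in WT, and 12.4 and 7.28 kb in HEAA (exact p = 1). PAXIP1 had the least, 3.94 and 4.16 kb in EV, 4.35 and 3.73 kb in WT, and 4.19 and 3.37 kb in HEAA (exact p = 0.8). In library 1 the mean of WT and HEAA exceeded EV in 5 of 6 windows, and in library 2 it fell short of EV in all 6. Taken alone, WT library 2 was above EV library 2 at KDM6A (5.14 against 5.11 kb) and KDM6B (20.2 against 19.5 kb). KMT2D was the window where this mean was below EV in both. The library 1 lists were longer in WT (63557 regions) and HEAA (72700) than in EV (59180), while those of library 2 were shorter; the part of list length in these directions was not tested.

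**Figure D2:**
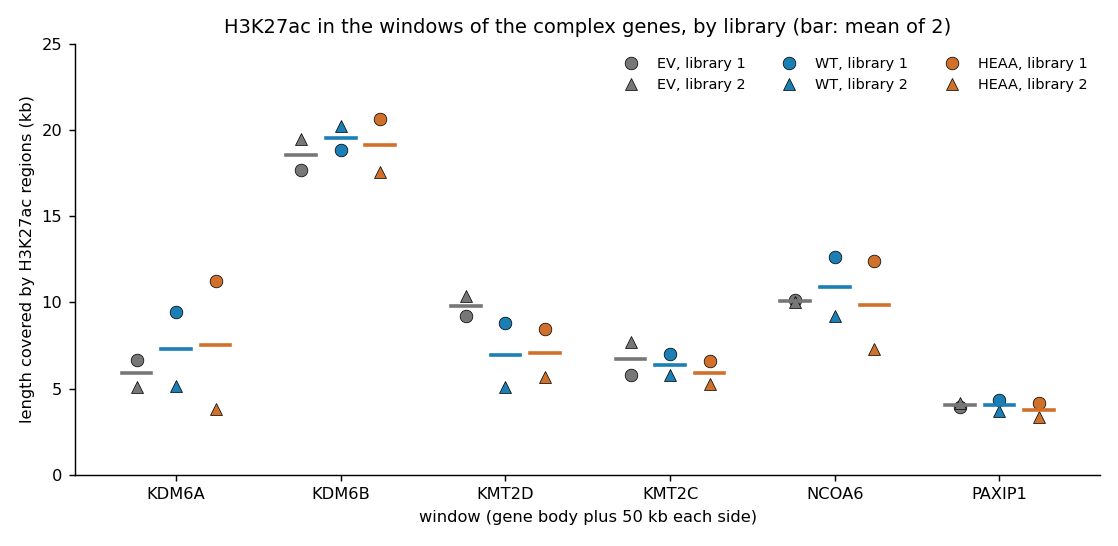
Length covered by H3K27ac regions (kb) in each window for the 6 libraries; circles are library 1, triangles library 2, and bars the mean of 2. KMT2D is the only window where all 4 WT and HEAA points lie below both EV points, and in the other 5 windows the lines overlap.

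WT and HEAA were compared directly with 2 libraries each. Summed over the 6 windows, WT exceeded HEAA by 1.86 kb (exact two-sided permutation test, p = 1). The sums were 61.0 and 49.2 kb in WT against 63.5 and 43.0 kb in HEAA, so both WT libraries lay between the HEAA libraries. This design cannot give a p below 0.333.

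Merging the H3K27ac regions of all libraries gave 44 regions in the windows. Of these, 19 (43.2%) were called in all 6 libraries, against 31.8% of the merged regions of the genome. None was present in all 4 WT and HEAA libraries and absent from EV, where the genome had 0.541%, and none in both EV libraries alone, where it had 0.91%. With 44 regions these shares would give less than 1 region, so the counts of 0 do not set the windows apart. Library 1 of WT and HEAA, and no other library, called 6 of the 44 (13.6%, genome 9.02%), and 3 of these 6 were in KDM6A.

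Several acetylated regions away from the starts were called in all 6 libraries. The widest of all, 7.10 kb, lay 43.2 to 50.3 kb past the KDM6B start (chromosome 17, 7786246 to 7793340), with 5.56 to 6.47 kb acetylated at 9.32-fold to 14.7-fold. In the KMT2C window the strongest region was not at the start but 26.1 to 28.4 kb before it (chromosome 7, 152160070 to 152162418), at 14.4-fold to 22.4-fold. By gene order, the next protein-coding gene on that side in the RefSeq table is XRCC2. Non-coding genes were left out, and the distance from the region to XRCC2 was not measured. A region 101.2 to 104.0 kb into KDM6A (chromosome X, 44833221 to 44835964) was called in 5 of 6 libraries, over 2.07, 2.50 and 2.65 kb in library 1 of EV, WT and HEAA. In library 2 it was 0.291 kb in EV, 0.428 kb in WT and absent from HEAA, so it split by library number and not by line. The widest other regions were 2.53 kb at the upstream edge of the KMT2D window, 3.04 kb at that of NCOA6 and 1.77 kb at 73.8 to 75.6 kb past the PAXIP1 start, each called in all 6 libraries.

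H3K4me1, the mark that KMT2D and KMT2C place, was compared across the lines with 1 list each and no test. Over all 6 windows it covered 82.7 kb in EV, 92.7 kb in WT and 91.2 kb in HEAA, ratios to EV of 1.12 and 1.10. The same ratios summed over bins of the genome were 1.13 and 1.18. The windows differed in direction. KMT2C had 8.21 kb in EV, 15.9 kb in WT and 12.8 kb in HEAA, which is 1.94 and 1.56 times EV. KDM6A had 3.57, 6.61 and 5.58 kb, 1.85 and 1.56 times EV. Both thus passed 1.5 times EV in both lines, as did 16.7% of the 9901 bins with at least 1 kb of H3K4me1 in EV.

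These ratios depended on how weak regions were treated. With the lists cut to equal length by q value, KDM6A was at 0.932 and 0.939 times EV, so its direction turned, and KMT2C was at 1.94 and 1.19 times EV. With a minimum −log10 q of 3, KDM6A was at 1.16 and 1.19 times EV and KMT2C at 10.6 and 5.46 times. The KMT2C ratios at that threshold rest on a single short EV region, from 3.33 to 4.14 kb past the start. It is below the 1 kb of EV coverage asked of the bins, so the size of these ratios is uncertain. NCOA6 had 18.9 kb in EV and 23.1 and 23.0 kb in WT and HEAA (1.22 times EV in both), and PAXIP1 had 5.27, 6.98 and 7.51 kb. KMT2D, with the most H3K4me1 of the 6, went the other way, from 32.0 kb in EV to 27.1 kb in WT and 27.8 kb in HEAA (0.848 and 0.869). KDM6B was close to level at 14.8, 13.0 and 14.5 kb.

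Inside the gene bodies the lines stood further apart than around them. The same ratios over other gene bodies were not measured, so this does not set the members apart. The 6 bodies held 18.4 kb of H3K4me1 in EV, 32.4 kb in WT and 28.5 kb in HEAA, 1.76 and 1.55 times EV, while the flanks held 64.3, 60.3 and 62.7 kb, 0.939 and 0.974 times EV. KMT2C gave the largest part, with 5.46, 11.7 and 9.67 kb in its body. NCOA6 followed with 4.60, 8.54 and 7.53 kb, and the KDM6A body held 3.27, 6.39 and 4.98 kb. The KMT2C and KDM6A values carry limits given below, near-identical copies of KMT2C and possible reads from the UTX construct. KMT2D had 0.922, 2.06 and 2.02 kb in its body while its flanks held 31.0, 25.0 and 25.8 kb. PAXIP1 did not share the direction: its body held 0.938 kb in EV, 0.330 kb in WT and 0.823 kb in HEAA. With lists of equal length the ratio over the bodies was 1.56 in WT and 1.30 in HEAA, an alternative chosen after the values were seen.

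**Figure D3:**
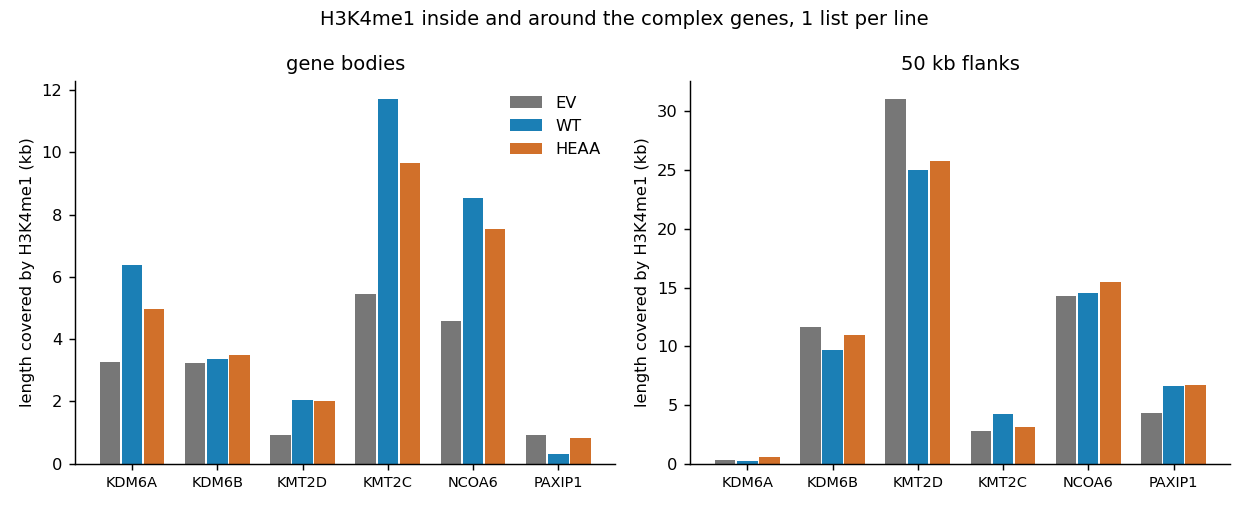
Length covered by H3K4me1 (kb) in the gene bodies (left) and the 50 kb flanks (right) of the 6 genes, with 1 bar per line and 1 list behind each bar. The bodies of KDM6A, KMT2D, KMT2C and NCOA6 hold more in WT and HEAA than in EV, and the KMT2D flanks hold less.

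By regions, 115 merged H3K4me1 regions lay in the windows, and 57 of them (49.6%) were called in all 3 lines, against 47.1% in the genome. WT and HEAA but not EV called 16 (13.9%, genome 13.5%), and EV alone called 8 (6.96%, genome 7.55%). These shares were near those of the genome. The 16 were 5 in KDM6A, 5 in KMT2C, 4 in NCOA6, 1 in KDM6B and 1 in PAXIP1, with none in KMT2D. The widest in KMT2C ran over 1.55 kb, 54.1 to 55.7 kb into the gene (chromosome 7, 152078300 to 152079852), at 2.14-fold in WT and 2.26-fold in HEAA. In the NCOA6 window the widest, 1.04 kb long, lay past the gene's end at 134.0 to 135.0 kb from the start, and the next, 0.720 kb long, at 5.7 to 6.4 kb into the gene, at 3.10-fold and 3.38-fold. KDM6B had 1.24 kb at 24.6 to 25.8 kb past its start, and PAXIP1 0.467 kb at 103.1 to 103.6 kb. Among regions of EV alone the widest were 0.642 kb in the KMT2C body, 0.465 kb at 6.5 to 7.0 kb before the KMT2C start and 0.440 kb in the KDM6A body, and KMT2D had 0.247 kb. Parts of KMT2C have near-identical copies elsewhere in the genome, and no source used here says how reads with several matches were treated, so its body values are uncertain for that reason.

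The KDM6A gene showed a stretch with regions in the WT and HEAA lines and none in EV. Between 186 and 198 kb past the start (chromosome X, 44918001 to 44930001), the EV lists held no region of any mark. H3K4me1 had 4 regions over 1523 bp in WT and 4 over 1728 bp in HEAA. H3K27ac library 1 had 2 regions over 860 bp in WT and 3 over 1177 bp in HEAA, and library 2 had 0 in each line. UTX, MLL4 and H3K27me3 had none. All these regions were narrow and weak, at 1.94-fold to 4.06-fold.

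In 2 places the marks coincided. The first ran from 44922664 to 44923107, with 349 and 398 bp of H3K27ac in library 1 of WT and HEAA and 376 and 432 bp of H3K4me1. Its 4 calls began within 89 bp and ended within 47 bp of each other. The second ran from 44928833 to 44929593, with 511 and 585 bp of H3K27ac and 686 and 746 bp of H3K4me1, and its calls began within 138 bp and ended within 157 bp of each other. The highest enrichment was that of WT H3K4me1 at the first place, 4.06-fold with a −log10 q of 8.83. So 2 of the 5 KDM6A regions of H3K4me1 called in WT and HEAA but not EV also had H3K27ac in both lines and not in EV. In the genome 1279 of 27238 such regions did (4.70%), which is 0.632% of all merged H3K4me1 regions. The other 11 in the windows outside KDM6A did not, which makes 2 of the 16 in all windows. The stretch was chosen from these same values, so its share cannot be tested against that of the genome.

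The WT and HEAA lines carry a UTX construct, and reads from its coding sequence would be placed on the exons of KDM6A. Exon positions on hg19 were not used here, and reads from the construct and from the native gene cannot be told apart in these lists. Without this stretch, KDM6A H3K4me1 was 1.42 times EV in WT and 1.08 times in HEAA, an alternative chosen after the values were seen.

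**Figure D4:**
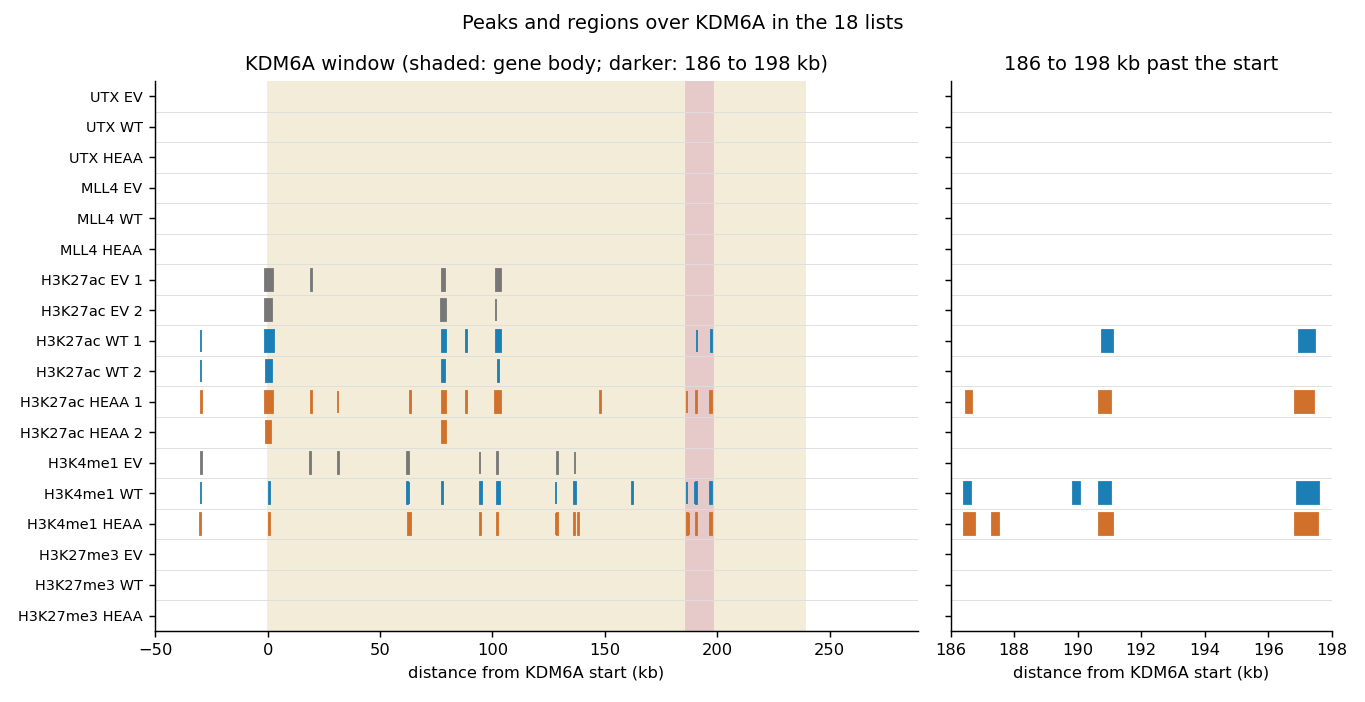
Peaks and regions of the 18 lists over the KDM6A window (left, x axis in kb from the start, gene body shaded) and over the stretch from 186 to 198 kb (right), 1 row per list. In the stretch, bars appear in H3K4me1 of WT and HEAA and in H3K27ac library 1 of WT and HEAA, and no EV row holds a bar.

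H3K27me3, the mark that KDM6A and KDM6B remove, was absent from the bodies of all 6 genes in all 3 lists. The share of other gene bodies without it was not measured, so this count does not set the members apart. The KDM6A window, of 339 kb, held none even in its flanks, as did 16.2% of the bins of 200 kb. In the other windows it lay in the flanks. PAXIP1 had the most, 29.6 kb in EV, 21.9 kb in WT and 35.8 kb in HEAA, and its widest region, 9.42 kb, lay 98.9 to 108.3 kb from the start, past the end of the gene (chromosome 7, 154686669 to 154696083). Counting only regions at a −log10 q of at least 3, the PAXIP1 window was at 0.233 times EV in WT and 0.458 times in HEAA. Few regions passed, and the highest −log10 q was 3.28 in EV, 3.44 in WT and 4.15 in HEAA. In the RefSeq table the next protein-coding gene past the end of PAXIP1 is DPP6 and on the other side HTR5A. They encode a neuronal channel subunit and a serotonin receptor. KMT2D had 15.1 kb in EV, 5.89 kb in WT and 10.8 kb in HEAA, ratios of 0.390 and 0.713 to EV. The WT value was lower by more than a factor of 1.5, as in 61.7% of the 7906 bins with at least 1 kb in EV, where the median ratio was 0.565 in WT and 0.918 in HEAA. KMT2D thus lay on the same side as most bins.

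NCOA6 had 8.63, 7.01 and 9.44 kb in EV, WT and HEAA. Most of it lay upstream of the acetylated start. The widest block there, 4.0 to 8.1 kb before the start, was called in all 3 lines over 3.93, 3.98 and 3.88 kb, and 2 others called in all 3 lay at 10.9 to 14.4 and 15.1 to 16.5 kb before it. KMT2C had 1.81 kb in EV, none in WT and 0.283 kb in HEAA, all 5.5 to 7.3 kb before the start. KDM6B had a single region of 0.633 kb in EV, 8.3 to 8.9 kb before the start, and none in the other lines. The sum over the windows was 55.8 kb in EV, 34.8 kb in WT and 56.3 kb in HEAA, ratios to EV of 0.625 and 1.01. Summed over bins of the genome, these ratios were 0.683 and 0.996, near those of the windows. The H3K27me3 list was shortest in WT (199901 regions, against 231899 in EV and 247498 in HEAA). The part of list length was not tested. NCOA6 and PAXIP1, 2 of the 4 windows with at least 1 kb in EV, held less than EV in WT and more than EV in HEAA, as did 29.9% of the 7906 bins.

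Of 46 merged H3K27me3 regions, 18 (39.1%) were called in all 3 lines and 10 (21.7%) in EV alone, against 25.7% and 21% in the genome. The widest regions of EV alone were 1.32 and 0.848 kb in the PAXIP1 window, 0.710 kb in that of KMT2D and 0.633 kb in that of KDM6B. A single region, 0.957 kb at 108.8 to 109.7 kb from the PAXIP1 start, was called in WT and HEAA but not in EV (2.17%, genome 7.4%). Because each line had 1 list, none of these differences can be set against replicate error.

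**Figure D5:**
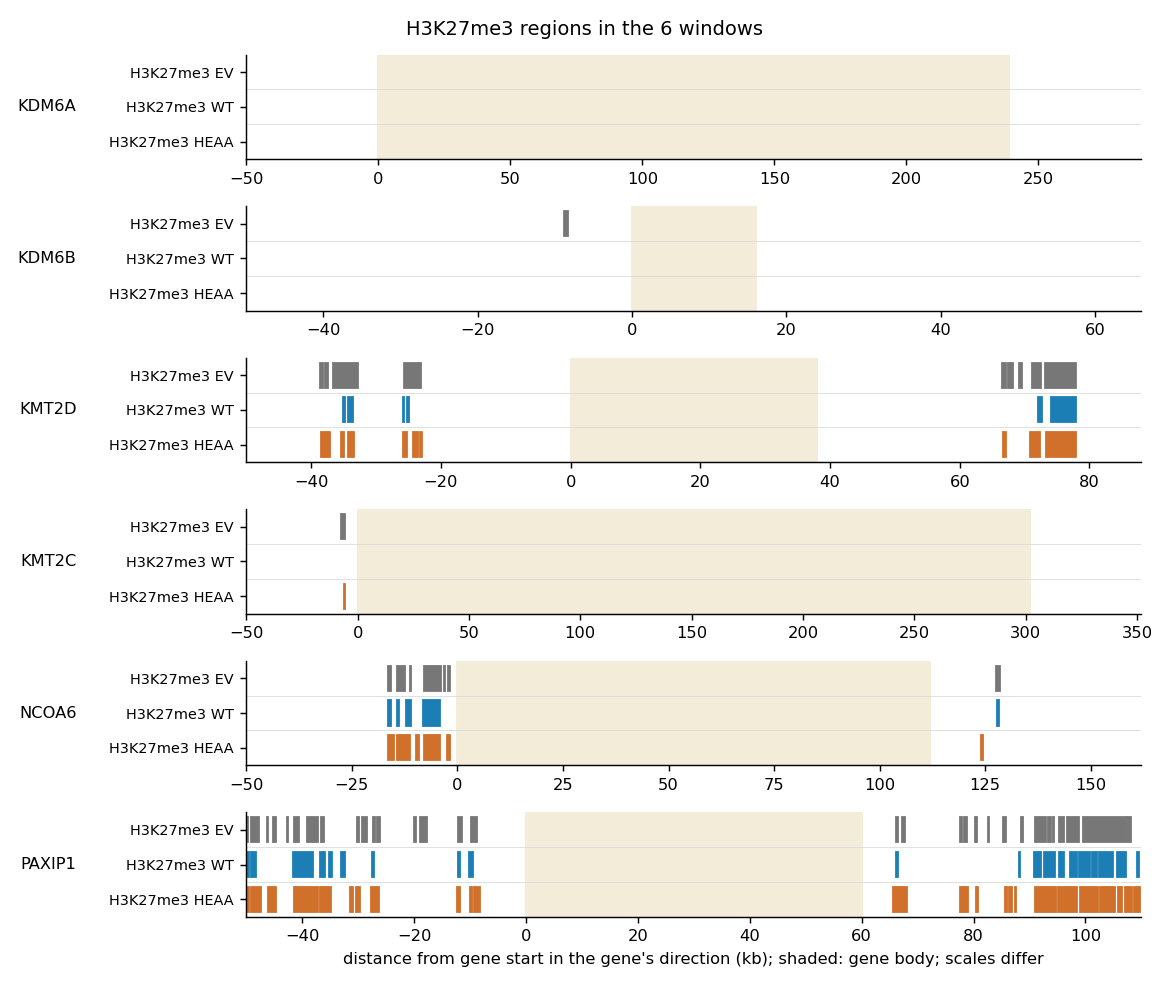
H3K27me3 regions in the 6 windows, with the distance from the gene start in the direction of the gene on the x axis (kb, scales differ between rows) and 1 row per line. The shaded gene bodies hold no bar in any line, and the KDM6A window is empty.

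The last comparison asked whether UTX or MLL4 bound at the genes of their own complex. A single peak lay in the 1367 kb. It was a UTX peak of the WT list, 48.8 kb past the KDM6B start (chromosome 17, 7791657 to 7791886), with 6.14-fold enrichment and a −log10 q of 9.09. This peak ranked above 70.6% of the WT UTX peaks. It lay inside the widest acetylated region of the windows, which was called in all 6 libraries, and overlapped no H3K4me1 region of any line. An H3K4me1 region called in all 3 lines began just past its end (chromosome 17, 7791966 to 7793638). HEAA had no UTX peak within 842 kb of this WT peak. MLL4 had no peak in any window. Of the bins, 17.5% held a UTX peak in WT, 19% in HEAA and 11.4% an MLL4 peak in WT or HEAA.

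Outside the windows the nearest UTX peaks were far from most starts. In WT and HEAA they lay 561 and 1337 kb from the KDM6A start, 1146 kb from that of KMT2D in both, 749 and 691 kb from that of KMT2C, and 227 and 237 kb from that of PAXIP1. For KDM6B the distances were 48.7 and 793 kb. For NCOA6 the distance was 164 kb in each line. That UTX site (chromosome 20, 33249667 to 33249884 in WT, 6.57-fold, and 4.36-fold in HEAA) lay 2.1 kb outside the NCOA6 window and carried H3K4me1 in all 3 lines. The median distance over the 6 starts was 394 kb in WT and 742 kb in HEAA. Over the 26012 H3K27ac regions called in all libraries it was 206 and 170 kb. Those regions include enhancers as well as gene starts. Distances from other gene starts were not measured, so this does not set the 6 starts apart. The nearest MLL4 peak in HEAA was 236 kb from the PAXIP1 start, at chromosome 7, 155031446 to 155031676, where HEAA also had a UTX peak. Of the 31 UTX and 133 MLL4 peaks of the EV line, the nearest to a start was an MLL4 peak 381 kb from that of KDM6B.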

How the data were processed

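Deposited peak lists were read for UTX, MLL4, H3K4me1, H3K27me3 and H3K27ac in UMUC1 lines; groups and library numbers came from the sample titles. The 6 inputs had no list. Per the labels' protocols, sonication fragmented all chromatin, after a micrococcal nuclease digest for UTX and MLL4. MACS2, hg19 and GRCh37 are named in the submitters' processing notes; its version and the aligner are not stated in the sources used here. The authors' peak caller gave each peak's fold enrichment, a linear ratio over background. The authors also deposited the −log10 of the p-value and q-value of each peak, and a score that was not used. Lists lengthen with depth, which the files do not give.

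The main value was the length covered by merged regions, compared with Python 3.11.15, NumPy 2.4.6 and pandas 2.3.3 (figures: matplotlib 3.10.9). Overlap meant at least 1 shared bp. H3K27ac was tested with exact two-sided permutation tests over libraries, with Benjamini-Hochberg adjustment over 10772 bins of 200 kb and the 6 windows; other marks had 1 list per line and no test. The code was tested on simulated data. Alternatives covered the q threshold, list length, window, bin size, gap between merged regions and each library.

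Regions named were every UTX and MLL4 peak, the H3K27ac region at each start, the widest other per window, those gained or lost, and up to 3 of the widest H3K4me1 and H3K27me3 regions per window called in EV alone or in both UTX lines alone; others were named after their values were seen. The members and lists were chosen with earlier results of these data known. The stretch of KDM6A was chosen from its values. An hg19 annotation was not used here, so lists of other complex genes and cell markers were not placed. Strands of NCOA6 and PAXIP1 are textbook knowledge. The other strands, the protein-coding neighbours by gene order and the promoters are from RefSeq (GRCh38.p14). They were matched by symbol for all 6 genes and for 4 promoters.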

Additional observations from a re-analysis of the deposited data

Results flagged for a closer look

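Relative to EV, H3K27me3 covered less in the WT line and more in the HEAA line in 2 windows, the same contrast with opposite directions. In the PAXIP1 window the covered length was 0.742 times EV in WT and 1.21 times EV in HEAA. In the NCOA6 window it was 0.812 times EV in WT and 1.09 times EV in HEAA. Of the 7906 bins of 200 kb with at least 1 kb in EV, 29.9% were likewise below EV in WT and above EV in HEAA, and the median ratios over these bins were 0.565 and 0.918. Each line had 1 list, both ratios share the EV list, and the difference was not tested. With a minimum −log10 q of 3, which few regions of that window passed, PAXIP1 was below EV in both lines, at 0.233 and 0.458 times.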

How the results depend on the processing

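No test could reach the threshold of 0.05, so stability here means direction or size. The summed H3K27ac difference between the lines with UTX and EV, -0.943 kb, was 1.49 kb in gene bodies alone and 1.27 kb in bodies with 10 kb each side; leaving out 1 library gave -4.05 to 2.78 kb, and the direction turned without library 2 of EV, WT or HEAA. KMT2D kept its direction in all 12 alternatives run (-3.37 to -2.15 kb when 1 library was left out, -0.100 kb in the body alone). Leaving out 1 library moved KDM6A from 0.237 to 2.71 kb, KDM6B from -0.143 to 1.65 kb, KMT2C from -1.56 to 0.371 kb, NCOA6 from -0.449 to 1.34 kb and PAXIP1 from -0.286 to 0.0390 kb; NCOA6 was -0.291 kb at a minimum −log10 q of 3. WT minus HEAA ran from -8.38 to 12.1 kb, and turned without WT library 1 or HEAA library 2. H3K4me1 over the windows was 1.76 (WT) and 1.55 (HEAA) times EV in bodies alone, and 1.56 in WT in bodies with equal lists. KDM6A H3K4me1 in equal lists was 0.932 (WT) and 0.939 (HEAA) times EV, and 0.953 in WT in the body. At a minimum −log10 q of 3 it was 1.16 and 1.19, and KMT2C 10.6 and 5.46, the latter over a single short EV region. The UTX and MLL4 peak count was 0 with midpoints in the body plus 10 kb. H3K27ac at starts fell from 5 to 4 genes at a minimum −log10 q of 3. Regions in all libraries numbered 19 to 20 when 1 library was left out. A 50% overlap rule was not run, since no peak was shared.

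With the replicate block, permuting libraries within each number (9 assignments, smallest p 0.111), the summed difference of -0.943 kb had an exact p of 0.889 and KMT2D one of 0.111; WT against HEAA, 1.86 kb, had an exact p of 1. Libraries of the same number deviated together across bins (r of 0.722 for EV and WT, 0.653 for EV and HEAA, 0.908 for WT and HEAA). There are 2 numbers only and the labels do not say what they share. Library 1 had the longer H3K27ac list in every line, and the part of list length in these r values was not tested.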
